A study of Mus musculus with 8 samples.

Results

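The miRNAs miR-199 and miR-214 were described here in mouse renal artery cells sorted as CD34+/CD105-, using every assay named miR-199a-3p, miR-199a-5p, miR-199b or miR-214 whichever species prefix it carried, without passenger-strand assays. This gave 5 assays of the 750 miRNA assays measured: mmu-miR-199a-3p, mmu-miR-199a-5p, mmu-miR-199b, mmu-miR-214 and hsa-miR-214. Of these, 4 were detected in at least 1 sample and 3 could be compared between groups.

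The cells came from 4 mice after bilateral renal artery clamping and reperfusion (ischemia/reperfusion mice) and from 4 mice after sham surgery. All 8 samples share the renal artery as tissue and the CD34+/CD105- sort. CD34 marks endothelial cells and progenitors, while endoglin (CD105) is carried by endothelium and by mesenchymal stromal cells. The strain, age and sex of the mice, and how long ischemia and reperfusion lasted, are not stated in the sources used here. The comparison between groups is of miRNA levels in these cells after the injury.

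miRNAs are short RNAs that bind messenger RNAs through a seed at their 5′ end and lower the output of those messages. miR-199a from the gene Mir199a-2 and miR-214 are made from 1 long noncoding RNA, Dnm3os, which is read from the strand opposite the dynamin 3 gene. Both are known as miRNAs of fibroblasts, pericytes and other mesenchymal cells, where the factor Twist1 drives the transcript, and both are known to be higher in fibrotic kidneys. Each hairpin yields 2 arms, the 5p and the 3p miRNA, and often 1 of them accumulates more than the other.

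The mature sequences, from RefSeq on GRCm38.p6, are shown 5′ to 3′ with the seed (bases 2 to 8) in capitals, because the assays are read by the arm and the seed they stand for.
mmu-miR-199a-3p: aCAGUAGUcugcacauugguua
mmu-miR-199b-3p: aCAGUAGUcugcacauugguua
mmu-miR-214-3p: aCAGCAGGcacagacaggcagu
mmu-miR-199a-5p: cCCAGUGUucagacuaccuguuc
The names of 2 of the 5 assays matched a mature entry as written. miR-214 is the older name of miR-214-3p, so both miR-214 assays are set beside that sequence. The name miR-199b gives no arm. The sequences that the assays target are not in the files.

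The 3p arms of miR-199a and miR-199b differ at 0 of 22 bases, so 3 hairpin genes (Mir199a-1, Mir199a-2 and Mir199b) encode the RNA read by the miR-199a-3p assay. The seeds of miR-199a-3p and miR-214-3p differ at 2 bases, U5C and U8G, counted from 1 at the 5′ end with the miR-199a-3p base first. Over all 22 positions, the mature miRNAs differ at 14. Apart from miR-199b-3p, no mature mouse miRNA in the RefSeq table has the miR-199a-3p seed. miR-761 has the miR-214-3p seed and had a Ct in 0 of the 8 samples.

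Mir199a-2 lies at chr1:162217814-162217923 and Mir214 at chr1:162223368-162223477, both on the plus strand of GRCm38.p6, with 5444 bases between the hairpins. Both lie inside Dnm3os (chr1:162217623-162225550, plus strand), which itself lies within the span of Dnm3 on the minus strand. Mir199b lies at chr2:32318460-32318569 within the span of Dnm1, and Mir199a-1 at chr9:21496495-21496564 within that of Dnm2, both on the strand opposite the dynamin gene. The annotation used here gives gene spans only, so exons and introns are not named.

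The clustered hairpins are shown with the arms discussed here in capitals, to show where the sequences of the assays lie in them.
Mir199a-2 (5p arm, then 3p arm): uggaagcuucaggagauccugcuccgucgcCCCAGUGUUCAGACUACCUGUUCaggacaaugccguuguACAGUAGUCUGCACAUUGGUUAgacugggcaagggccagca
Mir214 (3p arm): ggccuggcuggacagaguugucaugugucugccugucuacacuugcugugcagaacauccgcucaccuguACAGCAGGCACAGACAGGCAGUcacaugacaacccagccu

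The start region of Dnm3os, the transcript that carries both hairpins, is shown from RefSeq at chr1:162217373-162217672 (GRCm38.p6, plus strand). The window holds 250 bases before and 50 after the start, and the matches to the motifs searched are in capitals.
Dnm3os start region: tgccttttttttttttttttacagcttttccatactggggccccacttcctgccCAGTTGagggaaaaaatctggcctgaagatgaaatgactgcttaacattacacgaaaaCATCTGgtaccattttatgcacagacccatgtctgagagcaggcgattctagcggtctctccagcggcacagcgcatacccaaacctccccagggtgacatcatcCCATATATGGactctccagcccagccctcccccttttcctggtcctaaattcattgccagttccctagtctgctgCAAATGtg
The E-box CANNTG, the motif class bound by Twist1, was found 3 times on either strand, and 72.3% of 32817 mouse start windows of that length hold at least 1. The CArG box, the motif bound by serum response factor, was found 1 time, 33 bases before the start (CCATATATGG), and 1.63% of the windows hold one on either strand. No match overlaps another. A match describes the letters of the window, and binding was not measured.

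The readout was the threshold cycle (Ct) of real-time PCR, a value that falls as the amount of RNA grows. An assay counted as detected below Ct 35. The number of miRNA assays detected was 82 to 98 in ischemia/reperfusion mice and 75 to 163 in sham mice, and 563 of the 750 assays were detected in no sample. Sham mouse 2 had the fewest detected assays (75) and, on both PCR cards, the highest reference Ct (22.4 and 23.0) of all 8 samples. Levels below are minus delta Ct, the deposited reference Ct minus the Ct of the assay, on a log2 scale where higher means more RNA. Of 72 miRNAs in the limma fit across all miRNAs with values in at least 3 mice of each group, 49 had a lower mean after ischemia/reperfusion (68.1%), and their median log2 difference was -0.80.

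miR-199a-3p, known in human cells to target mTOR and CD44 among other messages, was detected in all 8 mice. Its Ct was 31.7, 34.2, 31.9 and 33.4 in ischemia/reperfusion mice 1 to 4, against 28.5, 34.0, 26.7 and 25.9 in sham mice 1 to 4. In ischemia/reperfusion mice 2 and 4 and sham mouse 2 it lay only 0.794, 1.58 and 1.03 cycles below the detection limit. Against the deposited reference its level was -10.7, -11.8, -11.4 and -11.7 in ischemia/reperfusion mice 1 to 4, and -7.89, -11.5, -7.67 and -7.92 in sham mice 1 to 4. The 4 ischemia/reperfusion mice and sham mouse 2 lay low together, and sham mice 1, 3 and 4 lay 2.74 log2 units or more above every ischemia/reperfusion mouse. The low mice also had the fewest detected assays, 75 to 98, against 127, 142 and 163 in sham mice 1, 3 and 4. Their mean Ct over the miRNAs detected in all 8 mice was 27.7 to 28.4, against 26.2, 25.8 and 24.8. The part of overall signal in this split was not tested. The mean level of miR-199a-3p was -11.4 ± 0.532 in ischemia/reperfusion mice and -8.75 ± 1.86 in sham mice (SD, n = 4 each). In sorted samples measured in bulk, fewer cells that carry a miRNA and less of it per cell cannot be told apart.

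The log2 difference of miR-199a-3p was -2.65 ± 0.92 (SE; 95% interval -4.74 to -0.55), a 6.26-fold lower mean. It did not pass the limma test over all 72 miRNAs (unadjusted p = 0.0191, adjusted p = 0.228; exact two-sided permutation p = 0.0857, smallest possible 0.0286). It ranked 4 of 72 by p. By the exact permutation test 2 of 72 miRNAs had an unadjusted p under 0.05 (2.78%), miR-199a-3p not among them. miRNAs with only 3 values in a group cannot reach that level by the permutation test. By limma 0 of the 72 passed after adjustment (0.0%), and 10 were lower at an unadjusted p under 0.05 (13.9%). Without sham mouse 2 the log2 difference was -3.57 ± 0.53 (SE; 4 ischemia/reperfusion and 3 sham mice) and passed (limma adjusted p = 0.0144), the 1 call of 72 in that fit (1.39%). That mouse is the lowest sham value, so leaving it out widens the difference by construction. For the all-mice reference, each card was instead set on its own mean over those of 54 miRNAs that it holds. These 54, miR-199a-3p and hsa-miR-214 among them, were detected in all 8 mice. Against the all-mice reference the log2 difference of miR-199a-3p was -1.99 ± 1.04 (SE).

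**Figure D1:**
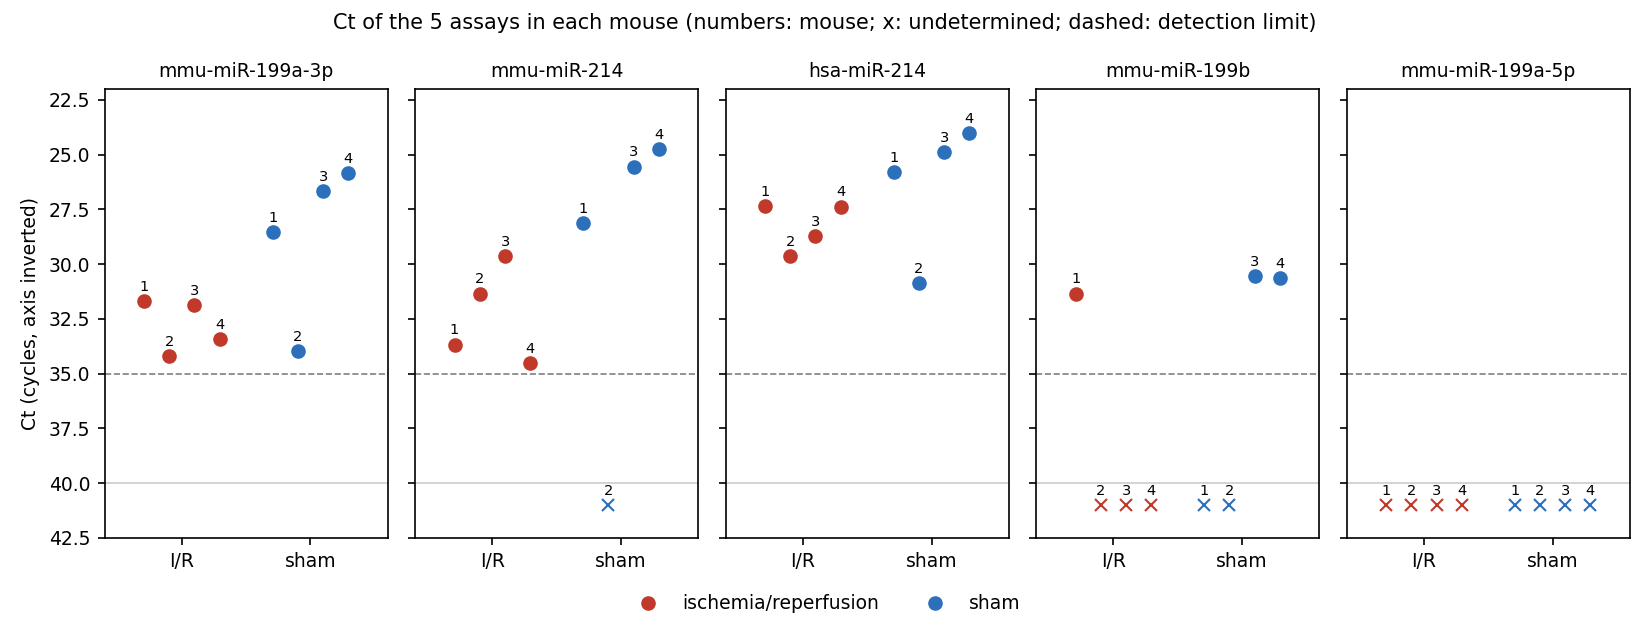
Ct of each of the 5 assays (panels; vertical axis in cycles, inverted so that more RNA is higher) in the 4 ischemia/reperfusion mice (red, left) and the 4 sham mice (blue, right); numbers name the mouse, crosses at the bottom are undetermined wells, and the dashed line is the detection limit. In the 3 assays with a Ct in most mice, sham mice 1, 3 and 4 sit above every ischemia/reperfusion mouse and sham mouse 2 does not.

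miR-214, which targets the Polycomb enzyme EZH2 among other messages, was read by 2 assays on different PCR cards. With the mmu-miR-214 assay the Ct was 33.7, 31.3, 29.6 and 34.5 in ischemia/reperfusion mice 1 to 4, against 28.1, undetermined, 25.5 and 24.7 in sham mice 1 to 4. The level was -12.7, -8.97, -9.10 and -12.9 in ischemia/reperfusion mice 1 to 4, and -7.49, -6.55 and -6.81 in sham mice 1, 3 and 4. The measured values of the groups did not overlap (5 of the 72 miRNAs, 6.94%, were lower without overlap), and the nearest values were 1.48 log2 units apart. That count leaves out the undetermined sham well.

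The log2 difference of the mmu-miR-214 assay was -3.95 ± 1.17 (SE; 4 ischemia/reperfusion and 3 sham values; 95% interval -6.65 to -1.24), a 15.4-fold lower mean. It had the smallest p of the 72 miRNAs and did not pass (unadjusted p = 0.0100, limma adjusted p = 0.228; exact two-sided permutation p = 0.0571, the smallest that 4 against 3 values allow). mmu-miR-214 and miR-199a-3p were 2 of 12 miRNAs with a log2 difference of -2 or below (16.7% of the 72). The undetermined well decides the size for mmu-miR-214. With that well at Ct 35 the log2 difference was -2.54 ± 1.57, and at Ct 40 it was -1.29 ± 2.56 (SE, n = 4 each).

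With the hsa-miR-214 assay every mouse had a Ct well below the limit. It was 27.4, 29.6, 28.7 and 27.4 in ischemia/reperfusion mice 1 to 4, against 25.8, 30.9, 24.9 and 24.0 in sham mice 1 to 4. The level was -5.89, -6.99, -7.13 and -5.48 in ischemia/reperfusion mice, and -4.34, -7.85, -4.66 and -5.20 in sham mice. Sham mouse 2 was the lowest of all 8, and the other 3 sham mice lay above all 4 ischemia/reperfusion mice by at least 0.28 log2 units.

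The hsa-miR-214 log2 difference was -0.86 ± 0.87 (SE, n = 4 each; 95% interval -2.85 to 1.13), close to the median of all 72 miRNAs (limma adjusted p = 0.605). Without sham mouse 2 it was -1.64 ± 0.63 (SE; limma adjusted p = 0.237), without sham mouse 1 it was -0.47, and with no normalization it was -1.88. Without sham mouse 2, each of the 3 assays had every remaining sham mouse above every ischemia/reperfusion mouse, as had 11 of the 72 miRNAs (15.3%). Against the all-mice reference and without that mouse, only miR-199a-3p of the 3 assays kept the groups apart (3 of 72 miRNAs, 4.17%). With no normalization and without that mouse, all 3 assays kept them apart, as did 58.3% of the 72 miRNAs.

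**Figure D2:**
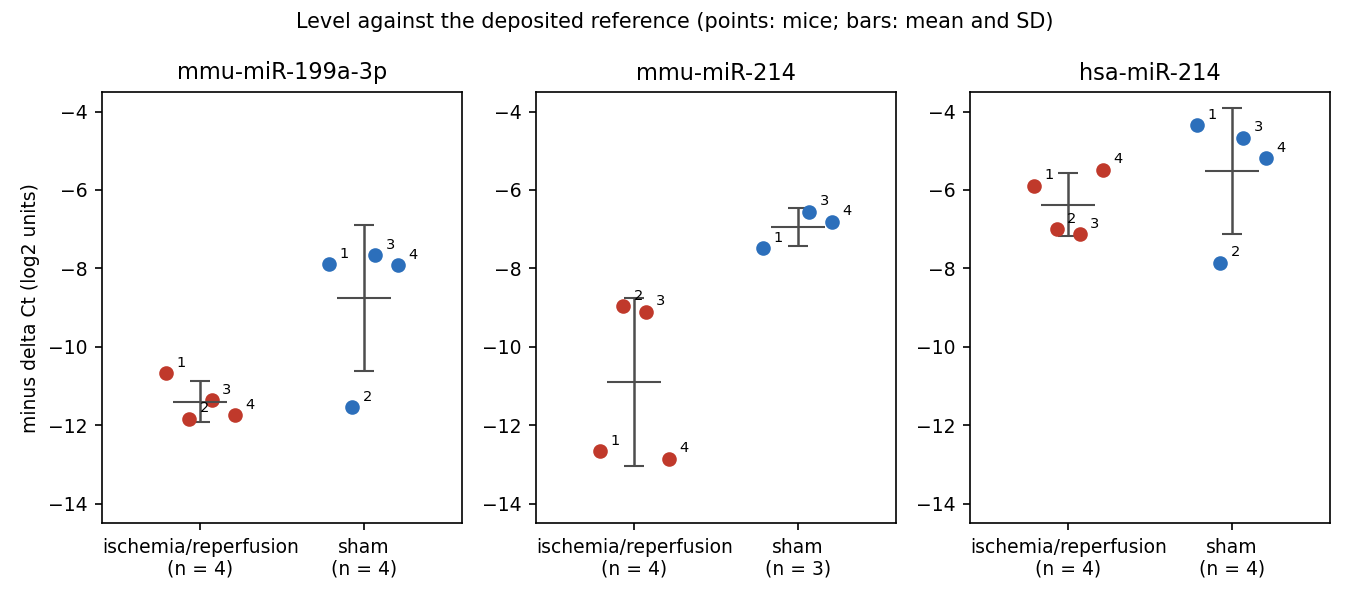
Minus delta Ct (vertical axis, log2 units) of the 3 assays that could be compared, in ischemia/reperfusion mice (red, left) and sham mice (blue, right), with the mean and SD of each group. With the deposited reference shown, miR-199a-3p is narrow after ischemia/reperfusion, with an SD of 0.532 (0.966 against the all-mice reference). The mmu-miR-214 assay falls there into 2 high and 2 low values.

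**Figure D3:**
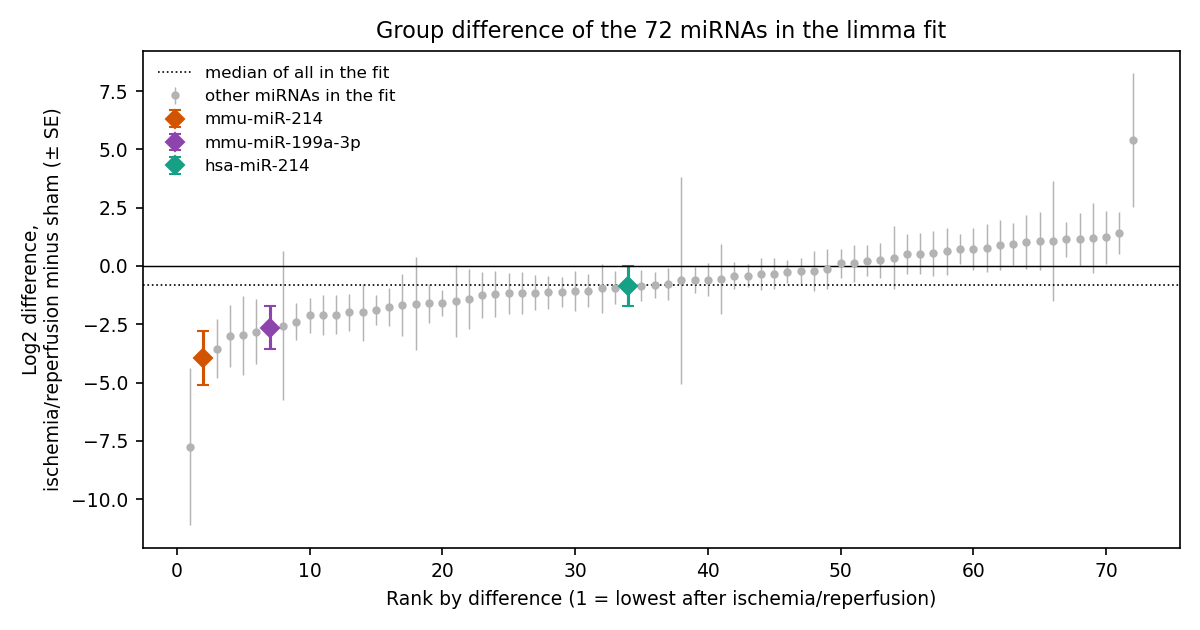
Log2 difference (ischemia/reperfusion minus sham, ± SE) of the 72 miRNAs in the limma fit, ranked along the horizontal axis, with the 3 assays of miR-199a-3p and miR-214 coloured and the median of all as a dotted line. The mmu-miR-214 assay ranks 2 and miR-199a-3p ranks 7 from the low end, while hsa-miR-214 ranks 34, near the median of -0.80.

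The 5p arm of the miR-199a hairpins was undetermined in all 8 mice, while the miR-199a-3p assay, named for a sequence that Mir199b also encodes, had a Ct in all 8. The assay of the other miR-214 arm, hsa-miR-214#, which the choice of assays left out, also had a Ct in 0 of 8 samples. Whether those assays can read their targets in these samples was not tested.

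The miR-199b assay had a Ct in ischemia/reperfusion mouse 1 (31.4) and in sham mice 3 and 4 (30.6 in each), and was undetermined in the other 5 mice. Its level was -9.89 in that ischemia/reperfusion mouse, against -10.3 and -11.8 in the sham mice. It was thus detected in 1 of 4 ischemia/reperfusion mice and 2 of 4 sham mice (Fisher's exact p = 1.0), and no fold was estimated. With 4 mice per group the smallest p of that test is 0.0286, so the count of 0 of 133 assays past adjustment (0.0%) says little about detection. In the authors' deposited table the fold for miR-199b is 2.28, which rests on these 3 wells. In the authors' deposited table the folds are 0.160 for miR-199a-3p, 0.0648 for mmu-miR-214 and 0.551 for hsa-miR-214, and recomputing them from the deposited delta Ct values gave the same figures.

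The 2 miR-214 assays parted in some mice and not in others. In Ct, mmu-miR-214 was above hsa-miR-214 by 6.32, 1.71, 0.891 and 7.14 cycles in ischemia/reperfusion mice 1 to 4, and by 2.34, 0.676 and 0.726 cycles in sham mice 1, 3 and 4. Ischemia/reperfusion mice 1 and 4 thus stood apart from the other 5 mice with both values. These mice had the highest hsa-miR-214 levels and the lowest mmu-miR-214 levels of their group, with mmu-miR-214 only 1.32 and 0.476 cycles below the detection limit. In sham mouse 2 hsa-miR-214 had a Ct of 30.9 where mmu-miR-214 was undetermined.

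On the minus delta Ct scale the gap of mmu-miR-214 to hsa-miR-214 averaged -4.52 ± 2.95 in ischemia/reperfusion mice (SD, n = 4) and -2.22 ± 0.818 in sham mice (SD, n = 3). The difference of -2.31 did not pass (exact two-sided permutation p = 0.286, adjusted over 3 pairs of assays p = 0.429), and it was -1.36 without ischemia/reperfusion mouse 4. Only miR-214 and miR-223 had an assay on both cards with a Ct below the limit in at least 7 samples. For miR-223, a myeloid miRNA, the same gap in Ct ran from 1.31 to 1.96 cycles in ischemia/reperfusion mice and from -0.663 to 2.76 cycles in sham mice.

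The gap of miR-199a-3p to hsa-miR-214 had a lower mean in ischemia/reperfusion mice than in sham mice, and the test over the 3 pairs could not call it. The gap on the minus delta Ct scale was -4.77, -4.84, -4.23 and -6.26 in ischemia/reperfusion mice 1 to 4, against -3.55, -3.68, -3.01 and -2.73 in sham mice 1 to 4. With this reference the groups did not overlap, as in 20 of 680 pairs of miRNAs detected in all mice with 1 on each card (2.94% were lower without overlap), and sham mouse 2 lay with the other sham mice. The mean was -5.03 ± 0.869 in ischemia/reperfusion mice and -3.24 ± 0.449 in sham mice (SD, n = 4 each). The difference of -1.79 had an exact two-sided permutation p of 0.0286, the smallest that 4 against 4 mice allow. Its adjusted p was 0.0857 over the 3 pairs, above the threshold of 0.05. The other pairs have 3 sham values and a smallest p of 0.0571. No pair could therefore pass that threshold after adjustment, whatever the values.

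The 2 assays of that gap sit on different cards. The median log2 difference of the miRNAs in the fit was -1.06 over 46 assays on the card of miR-199a-3p and -0.33 over 26 assays on the card of hsa-miR-214, so the medians of the cards differ in the same direction. Against the all-mice reference, the gap was -3.34, -2.92, -1.46 and -2.33 in ischemia/reperfusion mice 1 to 4, against -1.33, -1.79, -0.56 and -1.59 in sham mice 1 to 4. The groups then overlapped, with ischemia/reperfusion mouse 3 above sham mice 2 and 4 (0.588% of the 680 pairs were lower without overlap). The difference was -1.19 (exact permutation p = 0.0857, adjusted p = 0.257). For the gap, that reference was tried after seeing the data. For miR-199a-3p and mmu-miR-214, which share a card, the gap was 1.99, -2.86, -2.25 and 1.11 in ischemia/reperfusion mice 1 to 4, against -0.40, -1.12 and -1.12 in sham mice 1, 3 and 4. The signs were mixed within the ischemia/reperfusion group, and the difference was 0.38 (exact permutation p = 0.8, adjusted p = 0.8). With 4 against 3 values that test could not pass at 0.05.

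**Figure D4:**
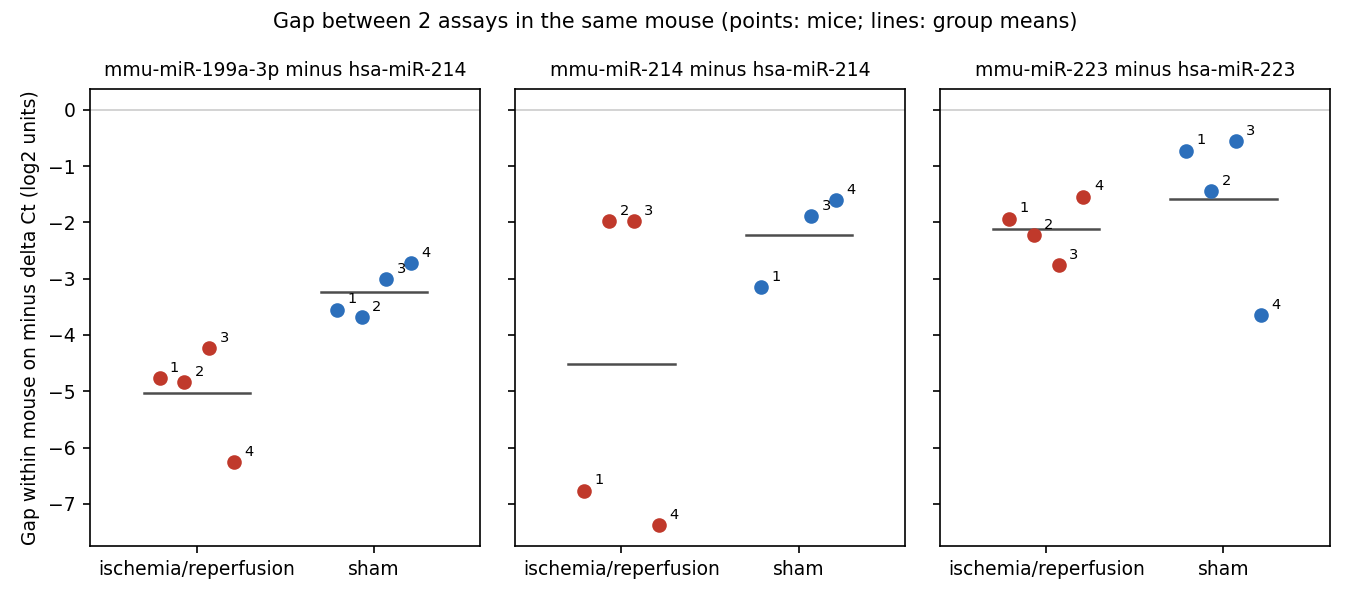
Gap between 2 assays in the same mouse on the minus delta Ct scale (vertical axis, log2 units) in ischemia/reperfusion mice (red, left) and sham mice (blue, right), with lines at the group means, for miR-199a-3p and mmu-miR-214 against hsa-miR-214 and for the miR-223 assays. With the deposited reference shown, the miR-199a-3p gap separates the groups, a separation lost against the all-mice reference, while in the miR-214 pair only ischemia/reperfusion mice 1 and 4 lie low, at -6.77 and -7.37.

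Over the 8 mice, the levels of miR-199a-3p and hsa-miR-214 correlated (Pearson r = 0.808, permutation p = 0.0147; Spearman rho = 0.714, permutation p = 0.0576). Leaving out the 2 mice farthest from the hsa-miR-214 median (ischemia/reperfusion mouse 3 and sham mouse 2) gave r = 0.822, which still holds the group difference. The deviations from the group means gave r = 0.864 and still hold sham mouse 2, the lowest sham value of both assays. Covariation within the groups without that mouse was not tested. Against the all-mice reference, r was 0.876 (permutation p = 0.00575) and rho 0.905 (permutation p = 0.00456). The 2 references treat the same pair in the same 8 mice, so these are 2 versions of 1 relation. Adjusted over both versions, the permutation p was 0.0147 and 0.0115 for r, and 0.0576 and 0.00913 for rho. The permutation moved values across both groups, so its p also takes in the group difference. The correlation was not one of the planned tests. The assays share the RNA of each mouse, and the reference values of the cards move together.

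Of the other 53 miRNAs detected in all 8 mice, those most like miR-199a-3p by Pearson r over the 8 mice were miR-2134 (0.877), miR-145 (0.866), hsa-miR-214 (0.808), miR-1937b (0.741) and hsa-miR-30e-3p (0.732). The median r over the 53 was 0.176. Against the all-mice reference, miR-145, a smooth muscle miRNA, was at 0.875 and miR-2134 at 0.528. Most like hsa-miR-214 were miR-1937b (0.936), miR-1937c (0.931), miR-720 (0.921), hsa-miR-30a-3p (0.869) and miR-2134 (0.837), with miR-199a-3p next at rank 6. For hsa-miR-214 the median r over its 53 candidates was -0.039. These values describe 8 points that share libraries and reference.

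Other miRNAs known from fibroblasts and mesenchymal cells were read by 16 assays for 13 miRNAs, of which 7 could be compared. Of these, 7 had a lower mean after ischemia/reperfusion, beside 68.1% of all 72 miRNAs, and 0 passed the limma test over all 72. Only miR-145, which the smooth muscle list also holds, had an unadjusted p under 0.05, beside 13.9% of all 72 that were lower at that level. Their median log2 difference was -1.67, beside -0.80 for all 72. miR-21, a miRNA raised in fibrosis, was at -2.99 ± 1.33 (3 values per group), miR-145 at -2.09 ± 0.84, and miR-127 at -1.75 ± 0.82 with 3 sham values. miR-152 was at -1.67 ± 1.33, miR-29c at -1.07 ± 0.87, miR-29a at -0.36 ± 0.68 and miR-31 at -0.14 ± 0.84 (SE). The miR-29 miRNAs repress collagen messages. Without sham mouse 2, miR-31 was at 0.15.

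Markers of other cells were read beside these assays. The CD34 and CD105 of the sort are proteins, which the miRNA assays cannot check. Both arms of the endothelial miR-126 were detected in all 8 mice, with log2 differences of -1.59 ± 0.57 for miR-126-3p and 0.11 ± 0.60 for miR-126-5p (SE, n = 4 each). Of 3 assays for the smooth muscle miRNAs miR-143 and miR-145, 1 to 2 were detected per ischemia/reperfusion mouse and 1 to 3 per sham mouse. The log2 of their summed level ran from -11.9 to -10.5 in ischemia/reperfusion mice and from -11.7 to -8.38 in sham mice. Of 12 assays for kidney tubule and epithelial miRNAs, 0 to 2 were detected per ischemia/reperfusion mouse and 0 to 4 per sham mouse. Those for miR-203 and miR-204 were each detected in 2 ischemia/reperfusion and 3 sham mice. The miR-194 assay was detected in 2 sham mice and the miR-192 assay in 1 sham mouse. The remaining 8, including those for miR-200a, miR-200b and miR-141, were detected in no mouse. Leukocyte markers had a summed level from -7.41 to -3.81 in ischemia/reperfusion mice and from -7.07 to -4.75 in sham mice, on the same scale. Their log2 differences were 1.15 ± 1.13 for hsa-miR-223, 0.63 ± 1.00 for mmu-miR-223, 0.23 ± 0.66 for miR-155 and -1.62 ± 2.00 for miR-150 (SE). Of 5 assays for striated muscle miRNAs, 0 to 1 were detected per ischemia/reperfusion mouse and 1 to 2 per sham mouse. The 3 erythroid and 2 neural assays were detected in no mouse. The part of these cells in the miR-199 and miR-214 values was not tested.

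**Figure D5:**
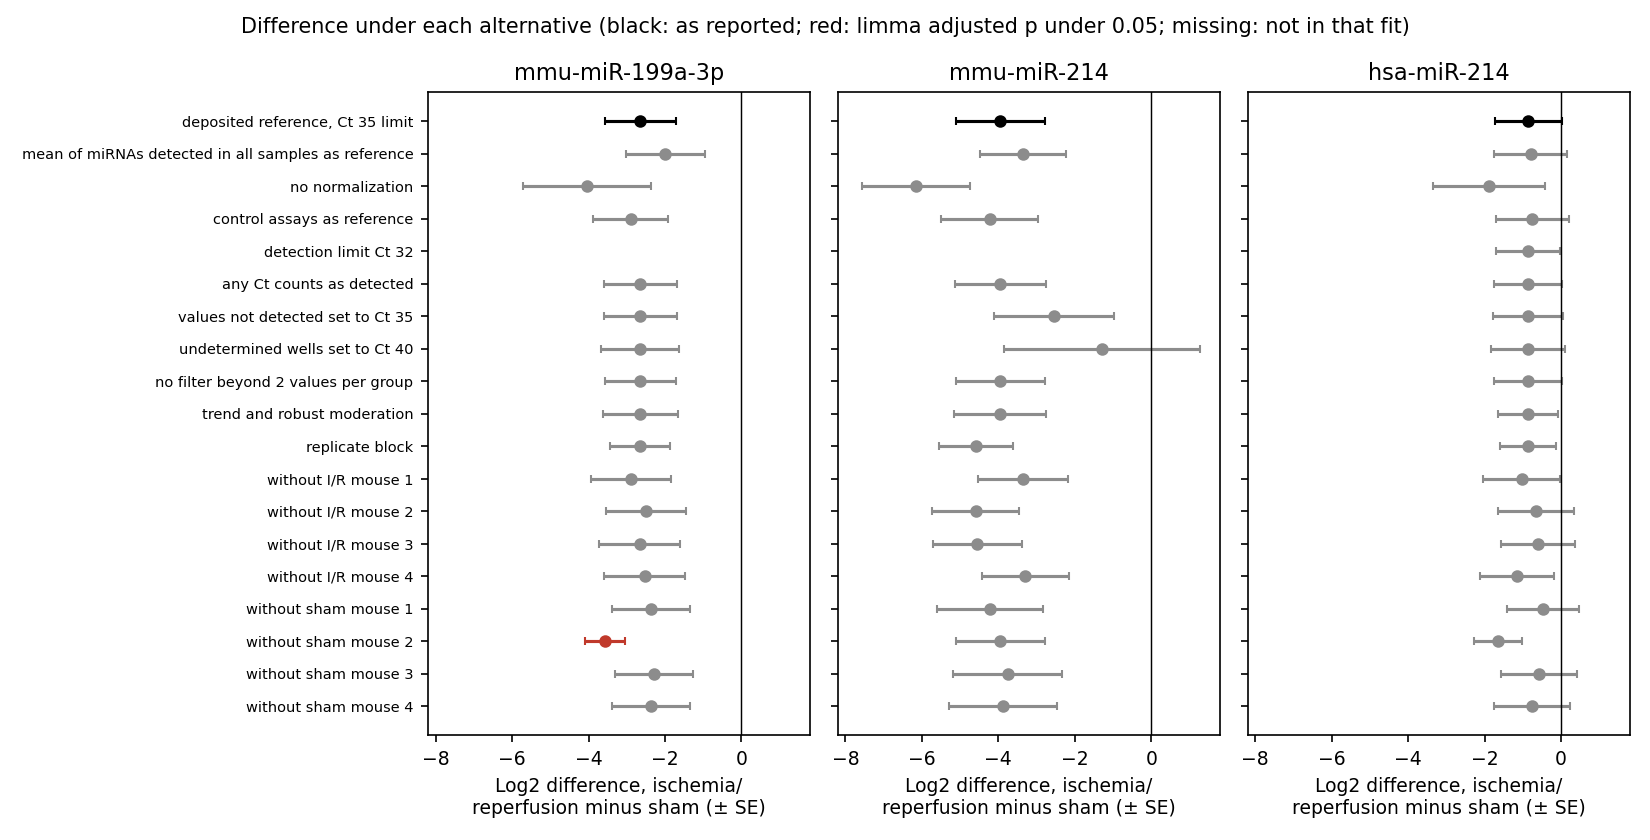
Log2 difference (horizontal axis, ischemia/reperfusion minus sham, ± SE) of the 3 assays under each alternative setting, with the reported value in black and a limma adjusted p under 0.05 in red; an empty line means that the assay was not in that fit. All values shown are below 0, and the single red point is miR-199a-3p without sham mouse 2, at -3.57.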

How the data were processed

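Per the labels' protocols, renal artery tissue was digested with collagenase, cells were sorted by fluorescence, RNA was extracted by mirVana kit and cDNA was read on a 7900HT Fast instrument. Deposited were the Ct, the delta Ct (a log2 scale with its sign turned) and, per the file headers, fold changes as the ratio 2 to the power of mean sham minus mean experimental delta Ct. The reference RNA and software are not stated in the sources used here. The delta Ct values were the Ct minus 1 reference value per sample and card, taken here from the catalogue numbers as 2 cards. In 13 wells, 0 of them in the 5 assays described, a delta Ct stood without a Ct and was treated as missing.

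Repeated wells were averaged, and values at or over Ct 35 were missing. Groups were compared with limma 3.58.1 in R 4.3.3 with Benjamini-Hochberg adjustment at 0.05, which was tested on simulated data, and with exact permutation tests (SciPy 1.17.1). Standard errors are the moderated ones. The labels number the mice, which were taken as replicates, and the number of wells per value is not stated, so precision comes from the number of mice. Summed levels add 2 to the power of minus delta Ct over detected markers.

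Named were all 5 assays, all miRNAs of the fibroblast list in the fit, and the 5 miRNAs with the highest r to each assay detected in all samples. The assays and lists were chosen with earlier results of these data known. Alternatives covered reference, detection limit, missing values, filter, moderation, a block by mouse number and leaving out each mouse.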

Additional observations from a re-analysis of the deposited data

Results flagged for a closer look

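For the 3 assays compared, the levels, the Ct values and the gaps gave 14 sets with 4 values in a group. Each set was examined for a single mouse far from the others, and chance marks about 1 in 20. Levels and Ct come from the same wells, so the sets are not independent. Only 1 stood out. The miR-199a-3p level of sham mouse 2, at -11.5 on the minus delta Ct scale, lay far below the other 3 sham mice, with a gap to the nearest of them that took up 0.934 of the group's whole range. In Ct the same mouse did not stand out by that measure. It had 75 detected assays, the lowest number among the 8 samples, and an hsa-miR-214 level of -7.85, also the lowest sham value.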

How the results depend on the processing

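No alternative turned the direction of the 3 group differences. miR-199a-3p and mmu-miR-214 could not be fitted at a detection limit of Ct 32, with 2 of 4 ischemia/reperfusion mice left in each. With mice left out 1 at a time, miR-199a-3p ranged from -3.57 (limma adjusted p = 0.0144, without sham mouse 2) to -2.28, mmu-miR-214 from -4.59 to -3.29, and hsa-miR-214 from -1.64 to -0.47. With no normalization the values were -4.04, -6.15 and -1.88. The median of all 72 miRNAs was then -1.93, beside -0.31 against the all-mice reference. By the exact permutation test 0 miRNAs passed after adjustment, with 2 at an unadjusted p under 0.05. That says little, because the smallest p of the permutation test is 0.0286 with 4 against 4 mice. The count of miRNAs past the limma threshold was 0 in the reported fit, with 10 at an unadjusted p under 0.05. It was 1 in the fit with any Ct counted as detected, with values not detected at Ct 35 and with undetermined wells at Ct 40 (hsa-miR-421 in each), and 0 to 1 with mice left out (miR-1896 without sham mouse 1, miR-199a-3p without sham mouse 2); those names were picked by these fits. The gap of miR-199a-3p to mmu-miR-214 turned to -0.10 with values not detected at Ct 35 and lay between -0.46 and 1.16 with mice left out 1 at a time. Detection of mmu-miR-214 turned from 4 of 4 ischemia/reperfusion and 3 of 4 sham mice (a difference of 25.0 percentage points) to 2 of 4 and 3 of 4 (-25.0 percentage points) at Ct 32. The cause of these changes was not tested. Mouse numbers are shared by the groups, but same-numbered mice did not deviate together (correlations of -0.38, -0.15, 0.02 and -0.25 over 54 miRNAs). With mouse number as a replicate block the differences were -2.65, -4.59 and -0.86 for the 3 assays, and 0 miRNAs passed.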
